A study of Mus musculus with 18 samples.

Results

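Axon guidance ligands and receptors were followed in the mouse fibroblast line 3T3-L1, whose cells can be turned into fat cells in the dish. The set holds every protein-coding gene whose symbol starts with Sema, Plxn, Epha, Ephb, Efna, Efnb, Robo or Unc5, together with Slit2, Slit3, Nrp1, Nrp2, Ntn1 and Ntn4. Members were taken by name, under a rule set with earlier results of these data known, and 55 of the 15194 genes in the deposited tables met it. They are 17 semaphorins, 9 plexins, 2 neuropilins, 9 Eph receptors, 8 ephrins, 2 Slits, 3 Robos, 2 netrins and 3 genes with the Unc5 prefix. Unc50 is in by its prefix only, as it is no netrin receptor, and its part in a count is given where it is called.

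Total RNA was sequenced from 18 libraries in 6 groups of 3. Control (CTL), MLKL-/- and RIPK3-/- cells were each taken at J0, labelled undifferentiated, and at J7, labelled differentiated, and all 18 carry the treatment label Untreated. RIPK3 is the kinase that activates the pseudokinase MLKL in necroptosis, a form of programmed cell death. Samples were grouped by title, and the table columns carry those titles. In 6 samples, those of both knockouts at J7, the genotype entry gives the other knockout, and the values under that reading stand in the closing section. Nothing in the labels tells whether a knockout line is 1 clone or whether a group's libraries are separate cultures, and every p-value here reflects the scatter among these libraries alone, which may be technical.

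Library totals ran from 20.2 to 36.9 M reads. Because each deposited table lists only genes with an adjusted p of the authors under 0.05, a member has values in a group only if it was listed in at least 1 comparison of that group, and an unlisted member is not at 0. Values were listed for 53 of the 55 members in J0 control, 50 in J7 control, 51 in J0 RIPK3-/-, 52 in J7 RIPK3-/-, 32 in J0 MLKL-/- and 36 in J7 MLKL-/- cells, and 21 members had values in all 6 groups. Reads of both targeted genes were present in all 18 libraries. Mlkl stood at 8.20 ± 0.344 FPKM in J0 control and 3.50 ± 0.629 in J0 MLKL-/- cells, and at J7 at 11.4 ± 0.479, 6.55 ± 0.540 and, in RIPK3-/- cells, 12.6 ± 1.28. Ripk3 stood at 7.95 ± 0.612 FPKM in J0 control, 6.96 ± 0.572 in J0 RIPK3-/- and 3.25 ± 0.815 in J0 MLKL-/- cells, and at J7 at 7.97 ± 0.367, 4.75 ± 0.327 and 4.03 ± 1.05. Within their groups, the third J7 MLKL-/- library and the second J0 MLKL-/- library lay farthest from the others, at a root mean square log2 distance of 0.706 and 0.417 against 0.416 and 0.421, and 0.294 and 0.303, for their partners.

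These families carry signals between neighbouring cells. Semaphorins bind plexins, and most secreted class 3 semaphorins need a neuropilin as co-receptor. Ephrins, tethered to the membrane, bind Eph receptor tyrosine kinases on the next cell, and both sides can signal. Slits bind Robo receptors, and netrins bind Dcc, neogenin and Unc5 receptors. All were named for steering growing axons and also act on cell adhesion, vessel growth and tissue boundaries, and fat depots are supplied by the nerves and vessels that these cues guide.

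The promoter windows of 4 members are shown because the results below turn on them: Sema3g had the largest rise when control cells differentiated, and Slit2, Epha4 and Epha2 had large falls there and the largest excess in J7 MLKL-/- over J7 control cells apart from Ntn4. Each runs 5′ to 3′ on the gene's strand from 250 bases before the RefSeq start to 50 after it, in GRCm38.p6, the mm10 build. Sema3g lies at chr14:31217623-31217922 on the plus strand, Slit2 at chr5:47982905-47983204 on the plus strand, Epha4 at chr1:77515039-77515338 on the minus strand and Epha2 at chr4:141300971-141301270 on the plus strand. In the authors' tables the Sema3g gene spans chr14:31217860-31230352, Slit2 chr5:47983138-48307733, Epha4 chr1:77367185-77515088 and Epha2 chr4:141301240-141329384, and each window holds the 5′ end of its gene as those tables give it. Capitals mark matches, on either strand, to 6 short motifs: the GC box spelled GGGCGG, the CCAAT box, the nuclear receptor half-site spelled AGGTCA, a C/EBP element spelled TTGCNNAA, the AP-1 site spelled TGANTCA, and the TEAD site spelled GGAATG.
Sema3g: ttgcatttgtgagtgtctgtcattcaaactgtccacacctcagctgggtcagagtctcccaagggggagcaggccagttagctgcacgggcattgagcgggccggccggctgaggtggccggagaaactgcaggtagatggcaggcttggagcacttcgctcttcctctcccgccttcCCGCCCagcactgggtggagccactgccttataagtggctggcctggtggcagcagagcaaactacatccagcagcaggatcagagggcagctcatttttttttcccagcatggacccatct
Slit2: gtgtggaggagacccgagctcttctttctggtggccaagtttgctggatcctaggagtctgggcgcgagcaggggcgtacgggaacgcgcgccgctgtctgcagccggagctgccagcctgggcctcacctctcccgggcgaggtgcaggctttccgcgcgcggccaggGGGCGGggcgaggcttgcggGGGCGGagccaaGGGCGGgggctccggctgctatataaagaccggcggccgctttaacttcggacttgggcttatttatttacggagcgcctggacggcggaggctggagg
Epha4: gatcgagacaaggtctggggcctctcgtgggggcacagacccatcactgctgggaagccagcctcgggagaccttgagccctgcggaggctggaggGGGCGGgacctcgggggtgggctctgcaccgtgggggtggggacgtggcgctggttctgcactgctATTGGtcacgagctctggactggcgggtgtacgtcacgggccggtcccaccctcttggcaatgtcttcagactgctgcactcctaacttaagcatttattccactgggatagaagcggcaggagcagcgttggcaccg
Epha2: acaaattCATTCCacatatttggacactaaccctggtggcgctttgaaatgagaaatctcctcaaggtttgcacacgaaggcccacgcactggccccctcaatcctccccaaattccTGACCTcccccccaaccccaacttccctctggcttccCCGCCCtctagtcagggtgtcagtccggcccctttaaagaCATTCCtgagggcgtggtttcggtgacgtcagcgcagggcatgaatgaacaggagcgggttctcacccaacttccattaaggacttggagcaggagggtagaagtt
The Slit2 window holds 3 GC boxes, the Sema3g window 1, the Epha4 window 1 with 1 CCAAT match, and the Epha2 window 1 with 1 AGGTCA and 2 GGAATG matches. Of the 55 members, 48 matched the RefSeq table, with 62 promoters. GGGCGG stood in 46 of these 62 (74.2%) against 35.7% of all 32851 promoters of that length, CCAAT in 14 (22.6% against 37.4%), AGGTCA in 8 (12.9% against 16.3%), GGAATG in 7 (11.3% against 14.7%), TTGCNNAA in 4 (6.45% against 10.8%) and TGANTCA in 2 (3.23% against 7.81%). The members' windows had a median GC content of 65.2% with 23 CpG, against 52.7% with 7 CpG over all promoters. A match is a description of the letters, and a window without one says only that these letters are not in it.

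Differentiation of control cells was marked by lower RNA of nearly every guidance receptor and ligand, with a few semaphorins going the other way. All 7 Eph receptors tested, all 8 ephrins, all 6 plexins, both neuropilins and both Slits fell, and 5 of 15 semaphorins rose. Sema3g, a secreted class 3 semaphorin, was the extreme: its level was 0.450, 0.499 and 0.347 FPKM in the J0 control libraries and 36.5, 41.1 and 37.7 in J7. FPKM are the authors' reads per kilobase and per M reads, on a linear scale, and means are given below with the SD over 3 libraries. The J7 values all lay far above the J0 values, 87.9-fold higher in pooled reads, with a log2 difference of 6.41 ± 0.08 (adjusted p = 4.07e-28) by edgeR's quasi-likelihood test with Benjamini-Hochberg adjustment over all genes tested; ± after a log2 value is its standard error.

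Over the 49 members with counts in both control groups, 45 passed the filter on low counts, of which 6 were called higher and 39 lower at an adjusted p under 0.05. This table was preselected: 95.9% of all 12055 genes tested were called, 48.2% higher and 47.6% lower, so that a call by itself says little about a member. The median log2 difference of the 45 members was -1.64, and that of all genes tested 0.03. In bulk RNA, fewer cells of a type and less RNA per cell cannot be told apart. Adipocyte markers summed to 16.2 to 17.2 FPKM in the J0 control libraries and 4815 to 5079 in J7 (7 of 7 genes, Adipoq and Lep at 0 in J0), preadipocyte markers to 202 to 211 and 29.6 to 30.8 (6 of 6 genes, Dlk1 at 0 in J7). Lists for other cell types moved too: macrophage 55.4 to 59.0 and 9.0 to 10.04 FPKM (3 of 7 genes listed), Schwann cell and oligodendrocyte 18.02 to 20.9 and 5.48 to 5.93 (3 of 6), neuron 2.14 to 2.18 and 0.276 to 0.358 (4 of 7), endothelium 0.893 to 1.22 and 0.326 to 0.414 (3 of 7), and epithelium 0.0991 to 0.190 and 22.8 to 25.9 (4 and 3 of 6). Within 4 of these lists genes went both ways. By group means, Lyz2 carried the macrophage sum (56.1 in J0 and 6.51 in J7), while Cd68 rose from 1.04 to 2.90 FPKM. In the endothelium list Cdh5 fell from 0.800 to 0.0194 and Pecam1 rose from 0.116 to 0.293. S100b fell from 18.5 to 5.16 and Mbp rose from 0.0678 to 0.199. Map2 fell from 1.68 to 0.105 and Snap25 rose from 0.00141 to 0.124. The part of these markers in the members' results was not tested.

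Among the other ligands that rose, Sema4a, a transmembrane semaphorin, went from 0.0213, 0.0635 and 0.0523 FPKM to 0.491, 0.623 and 0.800. The groups do not overlap, but the level stayed below 1 FPKM; the log2 difference was 3.80 ± 0.32 (adjusted p = 5.50e-11). Sema6d rose from 2.30 ± 0.0973 to 4.45 ± 0.185 FPKM, a log2 difference of 0.91 ± 0.05 (adjusted p = 7.97e-14). Sema6b, at 0.0940, 0.0776 and 0.1015 FPKM in J0 and 0.281, 0.286 and 0.188 in J7, was low throughout, with 1.41 ± 0.34 (adjusted p = 0.000463). Sema4b rose by 0.67 and Unc50 by 0.89 on the log2 scale, so that without Unc50 there were 5 members called higher, all semaphorins.

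The class 3 semaphorins split by member. Sema3a, the best-known repulsive ligand, fell from 9.30, 8.91 and 9.21 FPKM to 0.675, 0.673 and 0.694, 13.4-fold lower, and its highest J7 library lay below every J0 library. Sema3f, the semaphorin with the highest mean level over the libraries, fell from 16.1 ± 0.506 to 5.34 ± 0.202 FPKM, Sema3c from 13.1 ± 0.455 to 4.72 ± 0.194 and Sema3b from 1.72 ± 0.0222 to 0.732 ± 0.191. By sum over the 11 semaphorins with values in all 6 groups, the level in J0 control was 49.5 to 50.1 FPKM and in J7 control 58.2 to 62.7, of which Sema3g alone made up 36.5 to 41.1. Sema5b kept 2 reads over the 3 J7 libraries against 137 in J0, a ratio of 58.4-fold (95% counting interval 15.8 to 487) lower. Of the others, Sema4c (-0.85), Sema5a (-1.50), Sema6c (-2.34) and Sema6a (-3.70) fell on the log2 scale. Sema7a was called lower at -0.96, a call lost without any of 3 single libraries (-0.75 to -0.88, adjusted p 0.0699 to 0.113).

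Semaphorin receptors fell with these ligands. Nrp2, the neuropilin that Sema3f prefers, stood at 31.7, 32.6 and 32.7 FPKM in J0 and 3.52, 3.23 and 3.45 in J7, a 9.50-fold drop with a log2 difference of -3.29 ± 0.04 (adjusted p = 2.65e-28). Nrp1, the receptor subunit for Sema3a and for VEGF, fell less, from 17.3 ± 0.413 to 9.37 ± 0.266 FPKM. Plxnb2, the plexin with the highest level per length in J0 control cells, fell from 70.8, 69.3 and 69.8 to 21.0, 21.6 and 20.8, and every J7 library was lower than every J0 library. Plxna1 went from 55.2 ± 1.25 to 28.6 ± 0.755 FPKM, Plxna3 from 16.9 ± 0.214 to 3.40 ± 0.0997 and Plxnb1 from 3.05 ± 0.117 to 0.434 ± 0.0428. Plxnd1, a receptor for Sema3e in vessels, fell least among the plexins, from 39.4 ± 0.431 to 30.9 ± 1.04 FPKM, and at J7 the mean levels per length of Plxnd1 and Plxna1 were above that of Plxnb2.

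Among the 7 Eph receptors tested, Epha4 and Epha2 fell most. Epha4 went from 5.91, 6.32 and 6.03 FPKM to 0.283, 0.232 and 0.167, 27.0-fold lower, with a log2 difference of -4.80 ± 0.10 (adjusted p = 2.89e-23). Epha2 went from 7.99, 7.82 and 8.99 to 0.399, 0.365 and 0.431, 20.6-fold lower, with -4.41 ± 0.10 (adjusted p = 1.66e-22). In both genes the J0 and J7 libraries were far apart. Ephb4, the receptor for ephrin-B2 on veins and the Eph receptor with the highest mean level, fell from 40.1, 37.9 and 38.6 to 12.8, 12.5 and 13.4 FPKM. Ephb3 fell from 30.5 ± 1.12 to 7.31 ± 0.249 FPKM and Ephb2 from 7.72 ± 0.331 to 1.09 ± 0.0518. Ephb6 (-2.75) and the scarce Epha7 (-2.94) were called lower too. Summed over the 4 Eph receptors with values in every group, the level dropped from 49.4 to 53.3 FPKM in J0 control to 9.24 to 9.73 in J7.

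Ephrins fell beside their receptors. Efnb1 stood at 36.05, 33.6 and 34.7 FPKM in J0 and 8.25, 7.33 and 8.07 in J7, and Efnb2 at 10.2, 9.84 and 9.998 and 1.54, 1.39 and 1.20; neither gene's groups overlap. The log2 differences were -2.19 ± 0.04 (adjusted p = 2.15e-23) and -2.92 ± 0.06 (adjusted p = 9.08e-23). Class A ephrins, which are tethered by a lipid anchor, fell too: Efna1 from 13.1 ± 0.451 to 5.88 ± 0.403 FPKM, Efna4 from 12.9 ± 0.350 to 3.96 ± 0.315 and Efna5 from 6.27 ± 0.181 to 3.45 ± 0.356. Efna3 (-2.26), Efna2 (-0.88) and Efnb3 (-0.76) were called lower as well.

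The Slits moved by very different amounts. Slit2 went from 3.14, 3.36 and 3.36 FPKM to 0.122, 0.177 and 0.163, 21.2-fold lower, with a log2 difference of -4.45 ± 0.08 (adjusted p = 7.22e-25). Slit3 went from 37.3, 36.5 and 37.6 to 31.2, 30.8 and 28.9, with a small log2 difference of -0.34 ± 0.03 (adjusted p = 1.27e-09) and no overlap of the groups. Slit2 levels are per the authors' gene length of 25433 bases against 6067 for Slit3, so the level of Slit2 relative to other genes depends on that length. Robo receptors were scarce: Robo3 had 122 reads over the J0 and 2 over the J7 libraries, 52.0-fold (95% counting interval 14.1 to 434) lower, and Robo1 13 and 0, at least 3.69-fold lower when the J7 group is set to a floor of 3 reads. Ntn1, the founding netrin, fell from 10.2, 10.1 and 10.1 FPKM to 5.95, 5.24 and 6.08. Of its receptors, Unc5c fell from 3.65 ± 0.0959 to 0.814 ± 0.0729 FPKM, while Unc5b stood at 17.2 ± 0.621 and 16.7 ± 0.716, called lower at -0.08 ± 0.04 (adjusted p = 0.0417), a call lost without the first or the third J0 or J7 library (-0.05 to -0.08, adjusted p 0.0523 to 0.256).

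**Figure D1:**
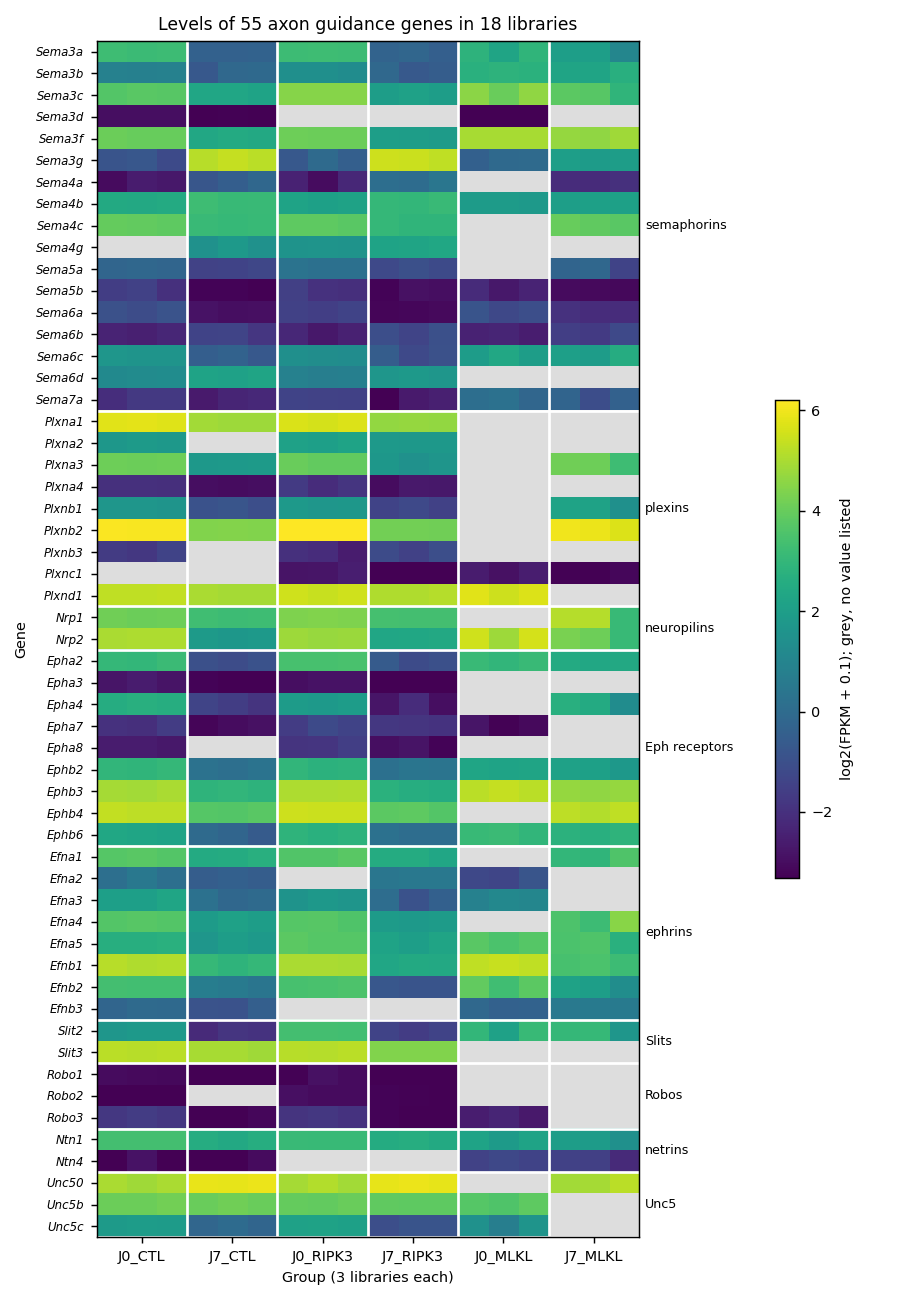
Level of each of the 55 members (rows, by family) in each of the 18 libraries (columns, 3 per group), as log2(FPKM + 0.1), with dark blue low, yellow high and grey where no value was listed. Most receptors and ephrins are darker in the J7_CTL and J7_RIPK3 columns than in the J0 columns, Sema3g is brightest in J7_CTL and J7_RIPK3, and the third J7_MLKL library differs from its partners in genes such as Nrp1 and Slit2.

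In RIPK3-/- cells most members also fell with differentiation, and several ligands and receptors fell further than in control cells. Of 47 members tested, 8 were called higher and 39 lower, where 97.8% of all genes tested were called (49.3% higher, 48.5% lower). Without Unc50 (0.89) there were 7 called higher. The median log2 difference was -1.99 against 0.04 for all genes. Sema3g rose from 0.520, 0.893 and 0.638 to 44.9, 43.4 and 39.8 FPKM, 63.4-fold higher, with 5.95 ± 0.08 (adjusted p = 2.39e-24). Sema4a rose from 0.0874, 0.0242 and 0.1102 to 0.979, 0.934 and 1.24 FPKM with 3.69 ± 0.27 (adjusted p = 2.68e-11). For both, every J7 library was above every J0 library. Sema6b (2.09), Plxnb3 (1.56, from 0.118 ± 0.0448 to 0.334 ± 0.0672 FPKM) and Sema4g (0.68) rose too; Plxnb3 and Sema4g had no values in 1 of the control groups.

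The largest falls in RIPK3-/- cells were those of Robo3, Epha4, Slit2 and Epha2. Slit2 fell from 10.1, 10.3 and 10.03 FPKM to 0.277, 0.228 and 0.279, 38.3-fold lower. Epha4 fell from 3.62, 3.38 and 3.80 to 0.0466, 0.129 and 0.0281, 57.5-fold lower (log2 -5.85, and -6.61 without the second J7 library), and Epha2 from 10.6, 10.6 and 11.1 to 0.562, 0.350 and 0.396, 24.7-fold lower. No J7 library of these 3 genes reached the lowest J0 library. Efnb2 fell from 10.8, 10.98 and 11.7 to 0.499, 0.462 and 0.452 FPKM, 23.8-fold lower. Robo3 had 1 read over the J7 libraries, 83.7-fold (95% counting interval 14.7 to 3338) lower than in J0. Adipocyte markers summed to 24.0 to 24.8 FPKM in J0 and 4710 to 5250 in J7 RIPK3-/- libraries (7 of 7 genes, Lep at 0 in J0) and preadipocyte markers to 181 to 184 and 23.8 to 25.3 (6 of 6, Dlk1 at 0 in J7). Macrophage markers summed to 26.8 to 30.6 and 8.40 to 9.70 FPKM (3 of 7), Schwann cell and oligodendrocyte markers to 27.6 to 28.5 and 7.76 to 8.88 (4 of 6), neuron markers to 2.84 to 3.22 and 0.472 to 0.504 (4 of 7), endothelium markers to 0.641 to 0.788 and 0.247 to 0.274 (2 of 7) and epithelium markers to 0.256 to 0.323 and 16.2 to 17.1 (4 and 3 of 6). Here too genes within a list went both ways. By group means, Lyz2 fell from 26.9 to 4.07 FPKM while Cd68 rose from 0.756 to 4.70. Cdh5 fell from 0.620 to 0.00299 while Pecam1 rose from 0.0812 to 0.261. The part of all these markers in these results was not tested.

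The difference between RIPK3-/- and control cells in the J7 minus J0 change was tested as an interaction. Of 43 members, 4 were called higher, 13 lower and 26 not called, where 39.0% of all genes tested were called (18.4% higher, 20.6% lower); the members' share called, 39.5%, was near that of all genes. The split over all genes turns with the scaling, from 2028 higher and 2270 lower with TMM factors to 2481 and 1950 with DESeq2 size factors and 1665 and 2534 with library totals, while the members gave 6 higher and 13 lower with DESeq2 size factors and 3 and 15 with library totals. Efnb2, the ligand of Ephb4, fell further in RIPK3-/- cells, with a difference of -1.66 ± 0.12 (adjusted p = 4.60e-12), and the 3 J7 values (0.499, 0.462 and 0.452) lay below those of J7 control (1.54, 1.39 and 1.20). Sema3c (-0.99), Unc5c (-1.12), Slit2 (-0.82), Efna5 (-0.70) and Plxnb1 (-0.65) also fell further. For Slit2, Efna5 and Sema3c the J0 level was already higher in RIPK3-/- than in control cells, by 1.60, 1.06 and 0.75 on the log2 scale. Epha7, an Eph receptor of low level here, at 0.157, 0.146 and 0.221 and 0.00838, 0.0246 and 0.0340 FPKM in control and 0.223, 0.339 and 0.279 and 0.190, 0.180 and 0.164 in RIPK3-/- cells, fell less, with 2.28 ± 0.44 (adjusted p = 0.000138). Nrp2 fell less as well, with 0.85 ± 0.06 (adjusted p = 1.71e-12). For Sema3g the difference was -0.43 ± 0.19 (adjusted p = 0.0661), and for Epha4 it was -1.03 ± 0.33 (adjusted p = 0.0132), a call that rests on single libraries: it was -0.63 to -0.85 (adjusted p 0.0588 to 0.134) without the first J7 control or the first or the third J7 RIPK3-/- library, and -1.79 without the second.

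In MLKL-/- cells the changes with differentiation were smaller for most members that could be tested. Only 24 members had values in both MLKL-/- groups and 23 were tested, no plexin, Robo or Unc5 member among them; 3 were called higher, 11 lower and 9 not called, where 66.7% of all genes tested were called (35.8% higher, 30.9% lower). The median log2 difference was -0.40 against 0.03 for all genes. Adipocyte markers summed to 10.2 to 12.8 FPKM in J0 MLKL-/- libraries and to 518, 635 and 1195 in J7, the third library being highest, against 4815 to 5079 in J7 control; their part in the members' values was not tested.

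Sema3g rose from 0.665, 0.854 and 0.885 FPKM to 3.97, 3.61 and 3.91, 4.76-fold higher, with 2.22 ± 0.16 (adjusted p = 0.000171). The J7 libraries lay above the J0 libraries and were close to each other, the third included. Sema6b, at 0.0867, 0.0974 and 0.0680 and 0.243, 0.208 and 0.333 FPKM, rose by 1.60 ± 0.31 (adjusted p = 0.00455), and Efnb3 from 0.840, 0.686 and 0.704 to 1.35, 1.39 and 1.38 FPKM by 0.85 ± 0.17 (adjusted p = 0.00511). Slit2 stood at 7.82, 4.26 and 8.44 FPKM in J0 and 8.14, 8.23 and 3.14 in J7. The groups overlap, and the log2 difference was -0.12 ± 0.42 (adjusted p = 0.822). Epha2 went from 8.73, 7.73 and 8.77 to 5.59, 5.09 and 5.24 FPKM, 1.57-fold lower without overlap, with -0.70 ± 0.11 (adjusted p = 0.00204).

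Of the ephrin-B ligands, Efnb1 and Efnb2 fell in MLKL-/- cells, while Efnb3 was called higher. Efnb1 went from 39.7, 42.1 and 39.2 FPKM to 10.8, 11.3 and 9.22 and Efnb2 from 15.1, 9.60 and 14.05 to 4.43, 3.98 and 2.47, with no overlap in either gene and log2 differences of -1.98 ± 0.10 (adjusted p = 6.34e-05) and -1.87 ± 0.27 (adjusted p = 0.00154). Nrp2 fell from 45.7, 28.2 and 48.9 to 19.6, 17.3 and 8.42 FPKM, both groups with 1 library well below its partners. Sema6a, at 0.462, 0.317 and 0.392 and 0.154, 0.131 and 0.129 FPKM, and Sema5b, at 0.128, 0.0547 and 0.0928 and 0.0218, 0.0195 and 0.0160, were called lower (-1.53 and -2.24). Sema3a (-1.01), Sema3c (-0.92), Sema3f (-0.26) and Ephb6 (-0.32) were called lower too, but not without single libraries. Sema3a and Sema3c lost the call without the first or the third J0 library (-0.81 to -0.95, adjusted p 0.0621 to 0.0736), and Sema3f and Ephb6 without any library but the third of J7 (-0.22 to -0.37, adjusted p 0.0599 to 0.139). Without the third J7 MLKL-/- library 13 members were called lower, without the second J0 library 10, without both 17, and without the first or the third J0 library 7. The number called higher was 3 each time. Calls over all genes moved as well. With every library 949 of 3075 genes were lower, without the third J7 library 1094 of 3119 and without the second J0 library 892 of 3124. Without both there were 1246 of 3103, and without the first or the third J0 library 824 of 3128 and 821 of 3120.

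The same test was made for MLKL-/- against control cells. A member has values in both MLKL-/- groups only if the authors called it between these groups or against control at both J0 and J7. The members tested, like all genes beside them, were thus preselected, in part on differences that enter this test. Of 23 members, 14 were called higher, 2 lower and 7 not called in the MLKL-/- minus control interaction, where 65.3% of all genes tested were called (39.0% higher, 26.3% lower); the members' share called, 69.6%, was near that of all genes. The scaling bears on this split: the median of all genes was 0.30 (log2) with TMM factors, -0.01 with DESeq2 size factors and 0.34 with library totals, and the share of calls that were higher was 59.8% with TMM factors (1184 against 797 genes) and 48.8% with DESeq2 size factors (963 against 1012). The members' median was 1.32. Efnb2 and Sema3b, called higher with TMM factors, lost their call with DESeq2 size factors. Slit2 differed by 4.30 ± 0.51 (adjusted p = 1.76e-05), Epha2 by 3.67 ± 0.14 (adjusted p = 3.42e-09), Sema3a by 2.74 ± 0.34 (adjusted p = 2.66e-05) and Ephb2 by 2.54 ± 0.13 (adjusted p = 2.45e-08). Sema3g differed in the other direction, by -4.24 ± 0.19 (adjusted p = 7.95e-09). Efnb1, which fell by 2.19 in control and 1.98 in MLKL-/- cells, differed by 0.16 ± 0.12 (adjusted p = 0.253), and Sema6b by 0.14 ± 0.42 (adjusted p = 0.783). Without the third J7 MLKL-/- library 18 members were called higher and 2 lower, beside 1292 and 887 of all 3038 genes tested.

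**Figure D2:**
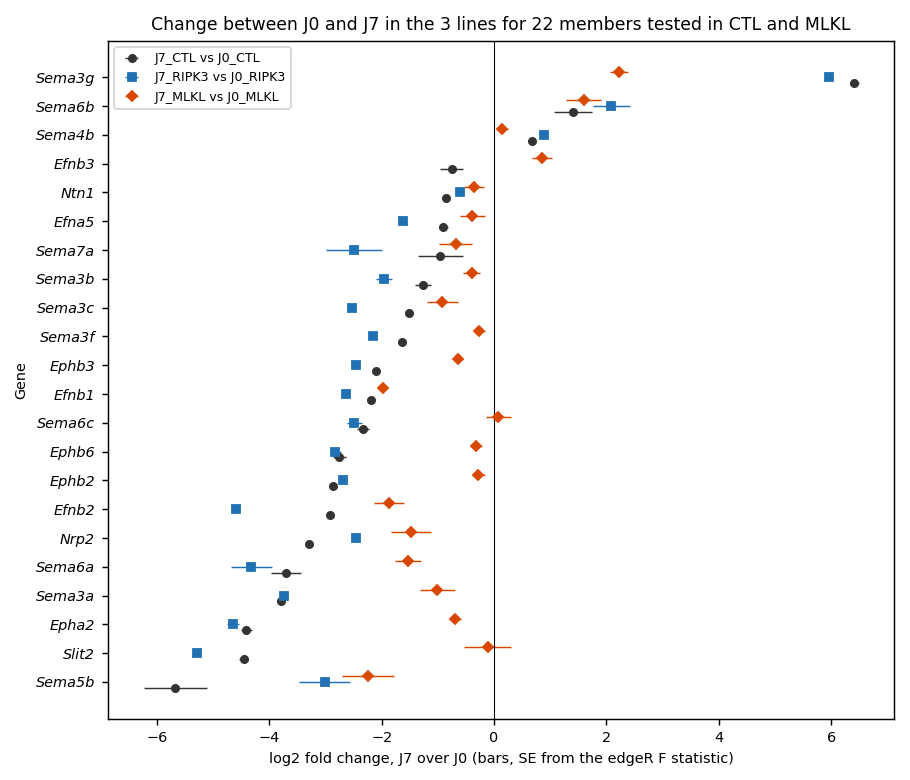
Fitted log2 fold change of J7 over J0 (horizontal axis) in control (black circles), RIPK3-/- (blue squares) and MLKL-/- cells (orange diamonds) for the 22 members tested in both control and MLKL-/- cells, with bars for the standard error. For Epha2, Slit2, Sema3a and Ephb2 the diamonds lie between -1.01 and -0.12 and the circles and squares well to the left, and for Sema3g the diamond lies far to the left of the other symbols; the Sema5b circle rests on 2 reads in J7.

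At J0, before differentiation, the lines already differed. In J0 MLKL-/- against J0 control cells, 14 of 30 members tested were called higher and 11 lower, where 83.6% of all genes tested were called (40.4% higher, 43.2% lower); the medians were 0.15 and -0.04. Ntn4, a laminin-like netrin, had 84 reads over the MLKL-/- libraries and 4 over the control libraries, 24.1-fold more relative to the totals, at 0.265, 0.320 and 0.279 FPKM in MLKL-/- cells. Its log2 difference was 4.48 ± 0.64 (adjusted p = 0.000534), 3.81 without the first J0 control library and 7.91 without the second. Sema7a, a membrane-anchored semaphorin that binds integrins and plexin C1, stood at 0.139, 0.198 and 0.196 FPKM in control and 0.994, 1.09 and 0.785 in MLKL-/- cells, and Sema3b at 1.74, 1.69 and 1.72 and 6.47, 7.06 and 6.62. Neither gene's groups overlap, and the log2 differences were 2.47 ± 0.23 (adjusted p = 6.02e-05) and 2.00 ± 0.08 (adjusted p = 1.89e-06).

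Slit2 was higher in the MLKL-/- libraries at J0, at 7.82, 4.26 and 8.44 FPKM against 3.14, 3.36 and 3.36, with the second MLKL-/- library nearest to control and a log2 difference of 1.09 ± 0.23 (adjusted p = 0.00296). Sema3f was at 31.2 ± 0.242 FPKM against 16.1 ± 0.506. Ntn1 was lower, at 4.57, 3.59 and 4.56 FPKM against 10.2, 10.1 and 10.1, with -1.23 ± 0.10 (adjusted p = 3.87e-05), so that the netrins went opposite ways. Efna2 was at 0.324, 0.298 and 0.471 FPKM against 1.01, 1.32 and 1.00, and Robo3 at 0.0693, 0.0977 and 0.0564 against 0.193, 0.220 and 0.189, both called lower (-1.58 and -1.38). Epha7 was at 0.0436, 0.00356 and 0.0195 FPKM against 0.157, 0.146 and 0.221, with -2.98 ± 0.50 (adjusted p = 0.00111), and -3.87 without the first J0 MLKL-/- library. Of 6 preadipocyte markers, 3 had values in both groups and went both ways: Thy1 had a mean of 50.7 FPKM in J0 MLKL-/- against 87.0 in J0 control cells, Gata2 8.58 against 5.75 and Cd34 0.390 against 0.167; their part in these results was not tested. Efnb2 (higher) lost its call without any library but the second of MLKL-/- (0.27 to 0.40, adjusted p 0.0889 to 0.137), Sema3a (lower) without the first or the third control library (adjusted p 0.0580 and 0.0609) and Unc5c (lower) without any control library (adjusted p 0.0621 to 0.0801). Without the second J0 MLKL-/- library 15 members were called higher and 11 lower, beside 1657 and 1762 of all 3855 genes tested.

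In J0 RIPK3-/- against J0 control cells, 17 of 45 members were called higher, 15 lower and 13 not called, where 55.8% of all genes tested were called (28.3% higher, 27.4% lower), and the members' median log2 difference was 0.00 against -0.01. Of the members called, 3 of the 17 and 1 of the 15 lay beyond 1 on the log2 scale. Over all genes, 320 of 3129 higher and 326 of 3030 lower calls did. Slit2, at 10.1, 10.3 and 10.03 FPKM against 3.14, 3.36 and 3.36, was 3.09-fold higher with no overlap and 1.60 ± 0.03 (adjusted p = 2.12e-20). Efna5, a lipid-anchored ephrin, was at 13.8, 13.0 and 12.9 FPKM against 6.17, 6.16 and 6.48 with 1.06 ± 0.05 (adjusted p = 2.39e-14), and Sema3c at 22.3 ± 0.190 against 13.1 ± 0.455 with 0.75 ± 0.03 (adjusted p = 1.74e-14). Epha8 was called higher (1.65) at levels of 0.167, 0.176 and 0.241 against 0.0671, 0.0655 and 0.0514 FPKM.

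Epha4 was lower in J0 RIPK3-/- cells, at 3.62, 3.38 and 3.80 FPKM against 5.91, 6.32 and 6.03, with -0.77 ± 0.05 (adjusted p = 1.65e-11) and no overlap. Sema6d, at 1.72, 1.58 and 1.63 against 2.20, 2.32 and 2.39 FPKM, was lower with -0.50 ± 0.07 (adjusted p = 1.03e-06), and Sema6a, at 0.260, 0.243 and 0.281 against 0.409, 0.367 and 0.437, with -0.64 ± 0.16 (adjusted p = 0.00166). Plxnb3, at 0.152, 0.134 and 0.0667 against 0.212, 0.195 and 0.280 FPKM, was called lower at -1.04, but at -0.68 with an adjusted p of 0.0618 without the third J0 RIPK3-/- library. Among the Eph receptors 6 were called higher and 2 lower. Sema3g was called higher at 0.61, but at 0.50 (adjusted p 0.0568) without the third control and 0.41 (adjusted p 0.111) without the second RIPK3-/- library. Calls of 0.14 or less in size for Efnb2, Ephb3, Ephb2 and Sema4c were lost without 1 to 3 single libraries each (adjusted p 0.0536 to 0.143).

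At J7, most members that could be tested had far more RNA in MLKL-/- than in control cells. Only 35 of the 55 members had values in both groups, among them 3 of 9 plexins and 0 of 3 Robos. A value needs a call of the authors, so these members were preselected. Of 34 members tested, 28 were called higher, 5 lower and 1 not called, where 94.9% of all genes tested were called (48.5% higher, 46.4% lower); the median log2 difference was 1.77, and 0.17 over all genes, which was 0.08 with DESeq2 size factors and 0.07 with library totals. All 6 Eph receptors, all 6 ephrins, all 3 plexins and both neuropilins tested were higher, with 9 of 13 semaphorins, though the calls of Nrp1, Sema5a and Efna1 were each lost on leaving out certain single libraries. Preadipocyte markers summed to 228, 227 and 139 FPKM in the 3 J7 MLKL-/- libraries (5 of 6 genes) against 29.6 to 30.8 in J7 control (6 of 6). Adipocyte markers summed to 518 to 1195 against 4815 to 5079 FPKM. Schwann and oligodendrocyte markers summed to 10.2 to 18.4 (2 of 6) against 5.48 to 5.93 (3 of 6), and epithelium markers to 0.479 to 1.61 (3 of 6) against 22.8 to 25.9 (3 of 6). The neuron, endothelium and macrophage lists had values for fewer genes in J7 MLKL-/- cells. By group means, Map2 was at 1.03 against 0.105 FPKM in J7 control and Snap25 at 0.0754 against 0.124. Pecam1 was at 0.131 against 0.293 and Csf1r at 0.156 against 0.0569. The part of all these markers in these results was not tested.

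Slit2 was at 8.14, 8.23 and 3.14 FPKM in J7 MLKL-/- and 0.122, 0.177 and 0.163 in J7 control libraries. All 3 MLKL-/- libraries lay above control, the third lowest, 41.3-fold higher in pooled reads, with 5.497 ± 0.44 (adjusted p = 7.09e-05). Epha4 was at 6.29, 5.51 and 2.37 FPKM against 0.283, 0.232 and 0.167, 20.7-fold higher, with 4.48 ± 0.44 (adjusted p = 0.000148). Epha2 was at 5.59, 5.09 and 5.24 FPKM against 0.399, 0.365 and 0.431, 13.3-fold higher, and here the 3 MLKL-/- libraries lay close together, with 3.83 ± 0.13 (adjusted p = 5.72e-06). Ntn4 had 57 reads against 2, a ratio of 29.1-fold (95% counting interval 7.69 to 246).

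Among the abundant receptors, Plxnb2 was at 64.1, 60.7 and 51.9 FPKM against 21.0, 21.6 and 20.8, Nrp2 at 19.6, 17.3 and 8.42 against 3.52, 3.23 and 3.45, and Ephb4 at 37.3 ± 2.55 against 12.9 ± 0.449, close to the 38.9 of J0 control. Nrp1 was at 35.1, 34.9 and 8.41 FPKM, with the third library below the control values of 9.55, 9.07 and 9.50. Its log2 difference was 1.58 ± 0.50 (adjusted p = 0.0194), a call lost on leaving out any of 5 single libraries (1.30 to 1.56, adjusted p 0.0575 to 0.0602). The same 5 libraries decided the call of Sema5a (1.19, then 0.93 to 1.20, adjusted p 0.0553 to 0.0687), and the first or second control library that of Efna1 (0.73, then 0.66 and 0.68, adjusted p 0.0572 and 0.0552). Sema3f was at 25.9, 24.9 and 28.9 against 5.18, 5.57 and 5.27 FPKM, with 2.42 ± 0.10 (adjusted p = 8.39e-06).

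Of the 5 members lower in J7 MLKL-/- cells, 4 had risen when control cells differentiated. Sema3g was at 3.97, 3.61 and 3.91 FPKM against 36.5, 41.1 and 37.7, 9.99-fold lower with -3.22 ± 0.10 (adjusted p = 5.31e-06), and Sema4a at 0.129, 0.128 and 0.147 against 0.491, 0.623 and 0.800 with -2.13 ± 0.26 (adjusted p = 0.000377). No MLKL-/- library reached the control range in either gene. Sema4b was at 3.94, 4.19 and 4.14 FPKM against 9.52, 8.51 and 8.79 (-1.03) and Unc50 at 29.6, 30.5 and 37.6 against 59.1, 57.3 and 60.3 (-0.75). Ntn1, which fell in control cells, was also lower, at 3.39 ± 0.647 FPKM against 5.76 ± 0.450 (-0.66). Sema6b was not called at 0.17 ± 0.30 (adjusted p = 0.595). Without the third J7 MLKL-/- library 28 members were called higher and 5 lower, beside 3693 and 3526 of all 7408 genes tested.

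**Figure D3:**
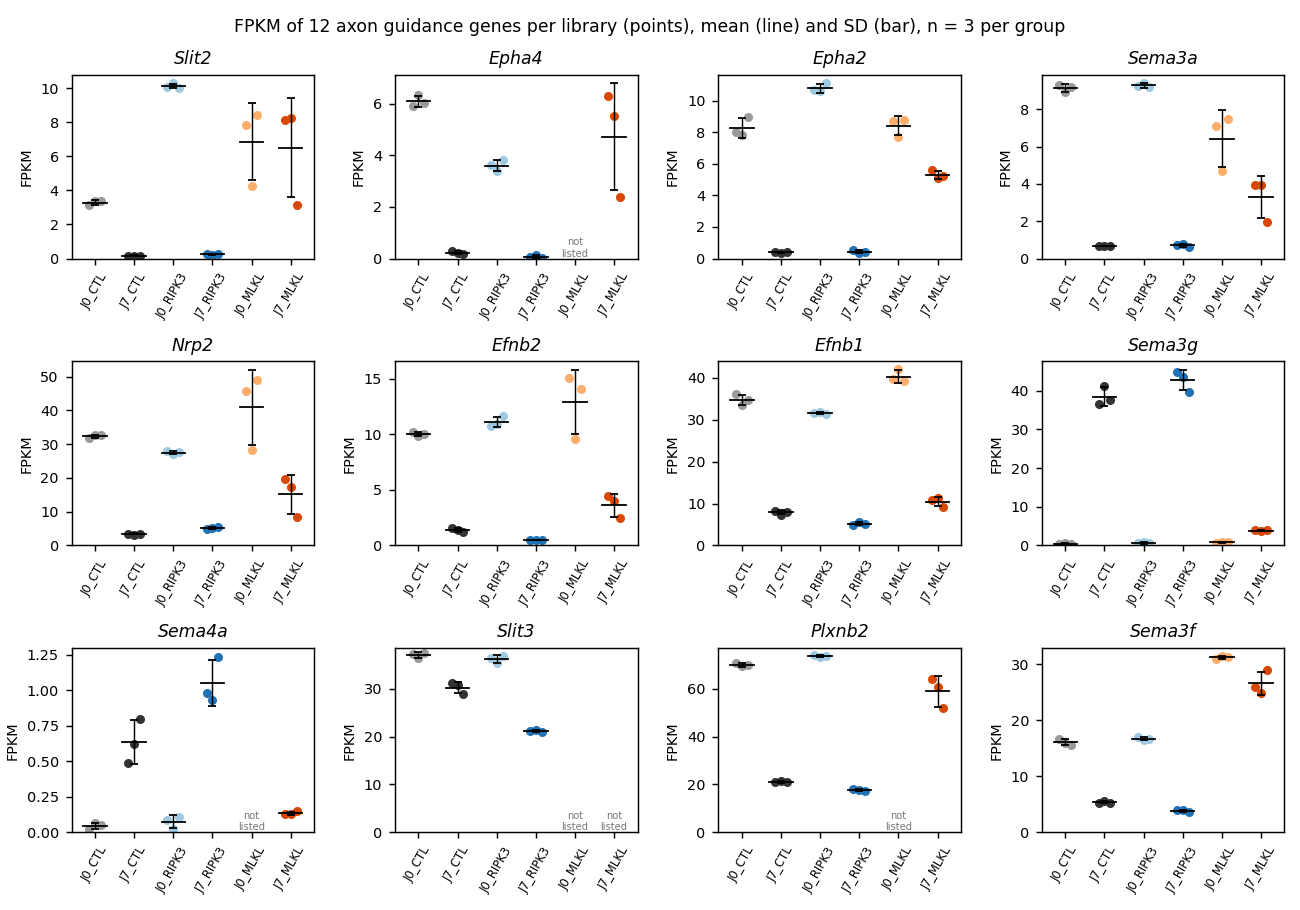
Level in each library (points), with the mean (line) and SD (bar) of each group of 3, as the authors' FPKM on linear axes that start at 0, for 12 members that the comparisons turn on. Slit2, Epha4, Epha2 and Sema3a are near 0 in J7_CTL and J7_RIPK3 and higher in J7_MLKL, where the third library is lowest for Slit2, Epha4, Sema3a and Nrp2, and Sema3g is high only in J7_CTL and J7_RIPK3 among the 6 groups.

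J7 RIPK3-/- and J7 control cells differed mostly by under 1 on the log2 scale, which 2 of the higher and 2 of the lower calls passed. Over all 11170 genes tested, 382 higher and 336 lower calls passed it. Of 40 members tested, 12 were called higher, 15 lower and 13 not called, where 59.1% of all genes tested were called (29.6% higher, 29.5% lower); the medians were -0.11 and 0.00. Epha7 was at 0.190, 0.180 and 0.164 FPKM against 0.00838, 0.0246 and 0.0340, 7.80-fold higher, with 2.95 ± 0.36 (adjusted p = 3.62e-07), though at low levels. Slit2 was at 0.277, 0.228 and 0.279 against 0.122, 0.177 and 0.163 FPKM with 0.78 ± 0.15 (adjusted p = 0.000116), and Sema4a at 0.979, 0.934 and 1.24 against 0.491, 0.623 and 0.800 with 0.73 ± 0.17 (adjusted p = 0.000904). Efna2 was at 1.25, 1.30 and 1.29 against 0.603, 0.667 and 0.595 FPKM with 1.06 ± 0.21 (adjusted p = 0.000153). None of these groups overlap.

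Efnb2 was lower in J7 RIPK3-/- cells, at 0.499, 0.462 and 0.452 FPKM against 1.54, 1.39 and 1.20, 2.91-fold lower with -1.53 ± 0.13 (adjusted p = 2.12e-09). Epha4 was at 0.0466, 0.129 and 0.0281 against 0.283, 0.232 and 0.167 FPKM with -1.80 ± 0.37 (adjusted p = 0.000261), and -2.57 without the second RIPK3-/- library. Unc5c was at 0.388, 0.456 and 0.450 against 0.780, 0.897 and 0.764 FPKM with -0.90 ± 0.10 (adjusted p = 8.52e-08), and Efnb1 at 4.91, 5.48 and 5.23 against 8.25, 7.33 and 8.07 with -0.59 ± 0.07 (adjusted p = 3.59e-07). In each the highest RIPK3-/- library was below the lowest control library. Slit3 was at 21.3, 21.3 and 21.1 FPKM against 31.2, 30.8 and 28.9 (-0.50), and of the plexins 4 were lower and 1 higher. Sema3g, called higher at 0.16 ± 0.04 (adjusted p = 0.00310), was at 42.7 ± 2.63 FPKM against 38.4 ± 2.40. Ephb6 (0.47) and Sema5a (0.35), called higher, lost their call without 3 single libraries each (0.26 to 0.49, adjusted p 0.0501 to 0.179), and so did Plxna3 (-0.18) and Sema4c (-0.13), called lower, without 3 and 4 (-0.11 to -0.18, adjusted p 0.0518 to 0.155).

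**Figure D4:**
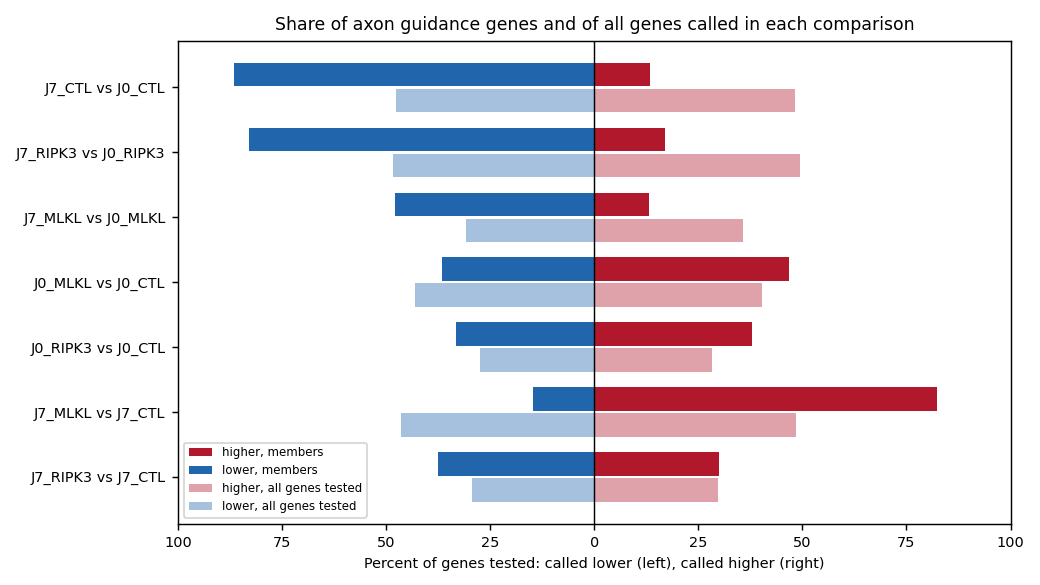
Percent of members tested (dark bars) and of all genes tested (pale bars) that edgeR called lower (to the left, blue) or higher (to the right, red) at an adjusted p under 0.05 in each of the 7 comparisons. For J7 against J0, 39 of 45 members were lower in control cells and 39 of 47 in RIPK3-/- cells, against 47.6% and 48.5% of all genes, and for J7 MLKL-/- against J7 control 28 of 34 were higher, against 48.5%.

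Some members had too few reads for a test or no values in a pair of groups. For J7 against J0 control cells, Plxna2, Plxnb3, Sema4g, Epha8 and Robo2 had no values in 1 of the groups and Plxnc1 in either. For J7 against J0 RIPK3-/- cells, Efna2 had none in J0, and Efnb3, Ntn4 and Sema3d had none in either group. Epha3 had 26 reads in J0 and 1 in J7 control libraries, 22.2-fold (95% counting interval 3.64 to 908) lower, and 17 and 0 in RIPK3-/- libraries, at least 4.70-fold lower. Plxnc1, the receptor of Sema7a, had 41 reads in J0 and 0 in J7 RIPK3-/- libraries, at least 11.3-fold lower. Robo1 had 13 and 0 reads in RIPK3-/- libraries, at least 3.59-fold lower. Robo2 had 35 reads in J0 RIPK3-/- and 1 in J0 control libraries, 36.4-fold (95% counting interval 6.12 to 1479) higher. Sema3d had 21 reads in J0 control, 1 in J7 control and 0 in J0 MLKL-/- libraries, 17.9-fold (95% counting interval 2.88 to 739.9) lower in J7 control and at least 6.11-fold lower in J0 MLKL-/-. These intervals and floors cover counting error only.

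Partners and cytoplasmic effectors of the pathway, 93 genes in 3 lists, moved both ways. Between J7 and J0 control, 24 of 70 tested were called higher and 41 lower, where 48.2% of all genes tested were called higher and 47.6% lower, with a median of -0.45 against 0.03 for all genes. Of the netrin and repulsive guidance partners 3 were higher and 10 lower of 13; co-receptors and neuropilin ligands gave 5 higher and 4 lower of 12, and cytoplasmic signalling genes 16 and 27 of 45. Mcam, an adhesion protein also described as a netrin-1 receptor, went from 0.242 ± 0.0317 to 41.0 ± 2.02 FPKM (log2 difference 7.37 ± 0.08), and Lrig1, which attenuates growth factor receptors, from 10.5 ± 0.886 to 182 ± 4.83 FPKM (log2 difference 4.06 ± 0.05). Dpysl3, a collapsin response mediator protein that acts in semaphorin signalling, went from 44.7 ± 0.753 to 1.08 ± 0.0829 FPKM (log2 difference -5.42 ± 0.05), and Draxin, a netrin antagonist, from 0.512 ± 0.112 to 0.0202 ± 0.0117 FPKM (log2 difference -4.64 ± 0.38).

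In RIPK3-/- cells 20 of 68 pathway genes tested were called higher and 43 lower on differentiation, beside 49.3% and 48.5% of all genes. Mcam went from 0.391 ± 0.0338 to 62.4 ± 0.606 FPKM (log2 difference 7.28 ± 0.07), Dpysl3 from 71.4 ± 1.60 to 1.72 ± 0.0307 FPKM (log2 difference -5.40 ± 0.05) and Flrt2 from 11.4 ± 0.221 to 0.429 ± 0.0855 FPKM (log2 difference -4.78 ± 0.08). In MLKL-/- cells 6 of 27 were called higher and 11 lower, beside 35.8% and 30.9% of all genes. Mcam went from 0.181 ± 0.0529 to 5.84 ± 1.17 FPKM (log2 difference 4.97 ± 0.28), Arhgef15, an ephexin, from 0.188 ± 0.0451 to 0.0102 ± 0.00271 FPKM (log2 difference -4.12 ± 0.38) and Draxin from 0.703 ± 0.0487 to 0.245 ± 0.0842 FPKM (log2 difference -1.55 ± 0.27). Mcam was called higher in all 3 lines.

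Between lines, J0 MLKL-/- cells had 14 of 34 pathway genes called higher and 12 lower than J0 control, beside 40.4% and 43.2% of all genes. J0 RIPK3-/- cells had 27 and 19 of 70, beside 28.3% and 27.4%. Against J7 control, J7 MLKL-/- cells had 30 and 16 of 47, beside 48.5% and 46.4%, and J7 RIPK3-/- cells 17 and 28 of 63, beside 29.6% and 29.5%. In J0 MLKL-/- cells Ntng1, a netrin-G, was at 1.69 ± 0.162 FPKM against 0.171 ± 0.0322 in control (log2 difference 3.34 ± 0.17), Itga1, an integrin subunit that pairs with the Sema7a receptor Itgb1, at 1.72 ± 0.361 FPKM against 0.294 ± 0.0260 in control (log2 difference 2.58 ± 0.18), Srgap1, a Slit-Robo GTPase-activating protein, at 0.128 ± 0.0581 FPKM against 1.19 ± 0.113 in control (log2 difference -3.21 ± 0.28) and L1cam at 0.129 ± 0.0215 FPKM against 1.10 ± 0.0665 in control (log2 difference -3.07 ± 0.16). In J0 RIPK3-/- cells Flt1 was at 0.535 ± 0.0340 FPKM against 0.223 ± 0.0555 in control (log2 difference 1.26 ± 0.15), Itga1 at 0.573 ± 0.00520 FPKM against 0.294 ± 0.0260 in control (log2 difference 0.95 ± 0.10), Grb10 at 0.709 ± 0.0878 FPKM against 3.37 ± 0.0709 in control (log2 difference -2.25 ± 0.08) and Flrt1 at 0.0481 ± 0.0302 FPKM against 0.188 ± 0.0682 in control (log2 difference -1.93 ± 0.40).

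In J7 MLKL-/- cells Ntng1 was at 0.636 ± 0.264 FPKM against 0.0296 ± 0.0186 in control (log2 difference 4.52 ± 0.57), Dpysl3 at 18.9 ± 5.43 FPKM against 1.08 ± 0.0829 in control (log2 difference 4.23 ± 0.25), Mcam at 5.84 ± 1.17 FPKM against 41.0 ± 2.02 in control (log2 difference -2.71 ± 0.16) and Nrcam, a semaphorin co-receptor, at 0.0255 ± 0.0133 FPKM against 0.177 ± 0.0104 in control (log2 difference -2.68 ± 0.37). In J7 RIPK3-/- cells Flrt1 was at 0.0946 ± 0.0354 FPKM against 0.0218 ± 0.0200 in control (log2 difference 2.01 ± 0.56), Flt1 at 0.646 ± 0.0884 FPKM against 0.402 ± 0.00875 in control (log2 difference 0.70 ± 0.13) and Grb10 at 0.185 ± 0.0384 FPKM against 1.09 ± 0.133 in control (log2 difference -2.53 ± 0.16), and Chl1, a relative of L1cam, had 1 read against 50 in control.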

How the data were processed

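Read counts per gene, FPKM and counts divided by a size factor per library (a normalised signal) were deposited by the authors in 7 tables, 1 for each pair of groups, with the authors' log2 fold change and p-values; the submitters' processing notes list DESeq2, the build mm10, featureCounts 1.5.0-p3, HISAT2 and FastQC 0.11.9. The rows hold the genes below the authors' adjusted p of 0.05. Of 88950 counts found in more than 1 table, 0 differed. Library totals (20.2 to 36.9 M reads) were recovered from counts and FPKM; 14 enrichment tables were not used.

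Counts were tested with edgeR 4.0.16 in R 4.3.3 (quasi-likelihood F test, filterByExpr, TMM factors on the recovered totals, no block, only the groups compared), with Benjamini-Hochberg adjustment over all genes tested and calls at an adjusted p under 0.05. The standard error is the log2 fold change over the root of F. Genes needed counts in every library of a comparison, so the genes tested differ between comparisons. Folds are pooled reads over pooled totals. A group with 0 reads takes a floor of 3 reads, and 1 to 3 reads an exact 95% counting interval. FPKM gave the levels; the authors' log2 fold change, p-values, other annotation columns and normalised signal served only as checks. The fit was tested on simulated data with the same scatter for every gene and few changed genes. That test does not cover the share of genes called here.

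Per-library values are given for the 4 largest called rises and falls of each comparison (at least 0.5 CPM) and the highest member of each family, and for some others. Of the other pathway genes, the 2 largest called rises and falls of each comparison are named, except 1 gene that is not reported here. The members and lists were chosen with earlier results of these data known. Alternatives covered scaling, filters, DESeq2 1.42.0, a replicate block, a fold threshold, single libraries and the genotype entry. Promoters come from RefSeq (GRCm38.p6). Replicate numbers were not taken as pairs.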

Additional observations from a re-analysis of the deposited data

Results flagged for a closer look

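These members were singled out because the interaction test found that their J7 minus J0 change differed between a knockout line and control cells. Values are the knockout change minus the control change on the log2 scale, by edgeR at an adjusted p under 0.05, and both tests share the control libraries.

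In RIPK3-/- cells the change was more negative than in control cells for Efnb2 (-1.66), Unc5c (-1.12), Epha4 (-1.03), Sema3c (-0.99), Slit2 (-0.82), Efna5 (-0.70), Sema3b (-0.67), Plxnb1 (-0.65), Sema3f (-0.49), Slit3 (-0.44), Efnb1 (-0.42), Ephb3 (-0.33) and Plxnb2 (-0.29). It was more positive for Epha7 (2.28), Nrp2 (0.85), Ntn1 (0.27) and Sema4b (0.24). Epha4 lost its call without any of 3 single J7 libraries (-0.63 to -0.85), Sema3b without the second or the third J7 control library (-0.58 and -0.54, adjusted p 0.0512 and 0.0705) and Sema4b without any of 3 (0.18 to 0.21, adjusted p 0.0595 to 0.0890).

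In MLKL-/- cells the change was more positive than in control cells for Slit2 (4.30), Epha2 (3.67), Sema5b (3.38), Sema3a (2.74), Ephb2 (2.54), Ephb6 (2.38), Sema6c (2.36), Sema6a (2.13), Nrp2 (1.77), Efnb3 (1.57), Ephb3 (1.42), Sema3f (1.32), Efnb2 (1.00) and Sema3b (0.83). It was more negative for Sema3g (-4.24) and Sema4b (-0.58). Efnb2 lost its call without the first J7 MLKL-/- library (0.67, adjusted p 0.0675). The Sema5b value rests on 2 reads in J7 control. Adipocyte marker levels differed between J7 MLKL-/- and J7 control libraries (518 to 1195 against 4815 to 5079 FPKM), and their part in these differences was not tested.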

How the results depend on the processing

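With the genotype entry in place of the title for the J7 knockout samples, the comparisons of J7 knockout with J7 control cells trade places. Tests of change then set J0 libraries of a line against J7 libraries titled as the other line, and repeat neither line's main result. Members called higher and lower follow, with the calls over all genes tested in brackets. For J7 against J0 there were 6 and 11 in RIPK3-/- cells (1513 and 1341 of 6442). MLKL-/- cells gave 7 and 19 (1506 and 1575 of 3524). Against J7 control, J7 MLKL-/- cells gave 12 and 15 (3302 and 3298 of 11170). J7 RIPK3-/- cells gave 28 and 5 (3522 and 3371 of 7263). The RIPK3 difference in change gave 25 and 5 (2913 and 2768 of 6650). The MLKL difference gave 7 and 11 (998 and 1078 of 3522). Under the genotype entry 23 called values of the named results and 39 other called member values reversed. The latter include Plxnb1 (3.14), Ephb3 (1.77) and Efna5 (0.51) in the RIPK3 difference, where the main counts were 4 higher and 13 lower. The 23 were Epha4 0.39 and Sema3f 0.68 for J7 against J0 RIPK3-/-; Ntn1 0.00105, Sema3g 0.16, Unc50 0.0188, Epha4 -1.80, Sema4a 0.73, Efnb1 -0.59, Sema3f -0.46 and Plxnb2 -0.24 for J7 MLKL-/- against control; Efnb2 1.502, Epha4 4.48, Sema4a -2.13, Efnb1 0.51, Sema3f 2.42 and Plxnb2 1.58 for J7 RIPK3-/- against control; Efnb2 1.33, Ntn1 -0.43, Epha4 5.22, Sema3c 0.61 and Sema4b -0.71 for the RIPK3 difference; and Sema4b 0.42 and Slit2 -0.32 for the MLKL difference.

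Over the other alternatives, 1552 of 1604 values of the 103 named member results kept their direction and their side of the threshold, 52 lost the call and 0 reversed. The named results were picked among called ones, mostly the largest, which favours this outcome. Among the other called member results, the fold threshold kept 71 values and lost 82. Leaving out 1 library kept 968 and lost 64, and DESeq2 kept 145 and lost 8. Requiring an absolute log2 fold change over 1 left these members called higher and lower, with the calls over all genes tested in brackets. For J7 against J0 control there were 3 and 28 (2383 and 2820 of 12055). RIPK3-/- cells gave 4 and 32 (2665 and 2926 of 11798). MLKL-/- cells gave 2 and 6 (700 and 473 of 3075). Against control, J0 MLKL-/- cells gave 5 and 6 (456 and 543 of 3824). J0 RIPK3-/- cells gave 3 and 1 (320 and 326 of 11044). J7 MLKL-/- cells gave 25 and 3 (2588 and 1748 of 7263). J7 RIPK3-/- cells gave 2 and 2 (382 and 336 of 11170). The RIPK3 difference kept 1 and 3 (223 and 375 of 11027). The MLKL difference kept 12 and 1 (881 and 503 of 3033). A mean of at least 50 counts left 7 members lower in J0 MLKL-/- (1436 of 3291). Testing only the genes the authors list left 8 higher and 1 lower in the MLKL difference (641 and 416 of 1616). Both settings tested fewer genes. With the replicate block, 7 members fell between J0 and J7 MLKL-/- in place of 11, beside 806 in place of 949 of all 3075 genes tested. Replicate numbers did not pair samples (correlations of same-numbered deviations in that comparison 0.513, -0.730 and -0.599). The block moved no other member count by over 1.5 times. Leaving out 1 library gave 7 to 13 lower in that comparison, and leaving out the second J0 and the third J7 MLKL-/- libraries together gave 17. Over all genes tested these were 821 to 1094 and 1246, against 949 with every library. The cause was not tested. With DESeq2 size factors Efnb2 (0.68, adjusted p 0.063) and Sema3b (0.51, adjusted p 0.096) lost their call in the MLKL difference. The authors' size factors were not run for the differences in change, as each table has its own. Depth limits Robo1, Robo2, Robo3, Epha3, Sema3d, Sema5b and Ntn4, with few reads in some groups.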
